A study of Sus scrofa with 24 samples.

Results

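The collagen chain genes of the pig were followed while fat cell precursors from subcutaneous fat and from muscle were differentiated in culture. They were taken by symbol alone, as every row whose pig Ensembl symbol is COL, a number, the letter A and a number, with no limit on expression, which gave 39 of 25462 genes. By the textbook classes these are 10 fibrillar genes, 6 basement membrane network genes, 8 FACIT genes, 5 beaded filament genes, 2 multiplexin genes, 3 short chain network genes, 4 transmembrane genes and COL28A1. Of the 39, 26 had a summed value above 1 FPKM over all libraries and were tested, and 20 reached a mean of at least 5 FPKM in 1 or more groups.

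Most collagens are secreted proteins whose chains wind into a triple helix in the endoplasmic reticulum, where prolines and lysines of the chains are hydroxylated, and many are then trimmed and crosslinked outside the cell. Fibrillar collagens form the rope-like fibrils of connective tissue, FACIT collagens sit on the surface of those fibrils, and network collagens build sheets such as the basement membrane. A precursor cell in fat tissue lies among interstitial fibrils, whereas a mature fat cell is wrapped in a basement membrane rich in type IV collagen and is surrounded by type VI collagen.

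Polyadenylated RNA was sequenced from cells of Yorkshire piglets 6 days old. BF cells came from back subcutaneous fat and IMF cells from the longissimus dorsi, a muscle along the spine, and each was collected on day 0 and after 2, 4 and 8 days, with 3 libraries per depot and day, 24 in all. Both depots went through the same medium changes: near confluence, growth medium was exchanged for induction medium with 3-isobutyl-1-methylxanthine, dexamethasone and insulin for 2 days, then for medium with insulin alone, then for growth medium. The groups are written BF-0d to BF-8d and IMF-0d to IMF-8d, and day 0 is the uninduced state of each depot. The study's methods name 3 piglets and describe no sort for a cell type, and no label ties a library to a piglet, so the p-values below measure the spread between these libraries, which may be technical.

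Values are FPKM, fragments per kilobase of transcript scaled to all mapped fragments, so levels can be set side by side between genes. FPKM summed to between 307967 and 385768 per library, and 9985 to 10858 genes reached 1 FPKM. Differences are given as fitted differences of log2(FPKM + 1) ± SE from limma, and a gene was called when its Benjamini-Hochberg adjusted p over 16135 tested genes was under 0.01 with a difference of at least 1. Folds are ratios of group mean FPKM, and means carry ± SD with n = 3. Where 3 library values follow each other they are replicates 1, 2 and 3, which have no order.

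BF-2d replicate 3 stood apart from the other libraries of its group, and collagen calls that rest on it are given below with and without it. Of the 20 genes that reached 5 FPKM, it was the highest of the 3 BF-2d libraries in 10 and the lowest in 6, and it lay nearest to the BF-0d mean in 14. COL1A1, for example, was at 5072 FPKM there against 2111 and 1806 in the other BF-2d libraries. The adipocyte marker list, 15 genes in the table, summed to between 118 and 121 FPKM in BF-0d and between 358 and 718 in BF-8d, and to between 142 and 154 in IMF-0d and between 200.4 and 235 in IMF-8d. Without LPL the other 14 genes summed to 116.5 to 118 FPKM in BF-0d, 173 to 189 in BF-2d, 116 to 162 in BF-4d and 81.7 to 107 in BF-8d. In IMF they summed to 141 to 153, 121 to 132, 151 to 161 and 89.2 to 107 on the same days. These sums were lower on day 8 than on day 0 in both depots, after a rise to BF-2d in BF. LPL led the list on day 8 with a mean of 422 FPKM in BF-8d and 120.4 in IMF-8d. ADIPOQ, LEP and PLIN1 of the list stayed at group means of at most 0.111 FPKM throughout. In all, 9 of the 15 genes reached a group mean of 1 FPKM in BF-0d and 7 in BF-8d, against 7 in IMF-0d and 6 in IMF-8d. By Oil Red O staining the study saw lipid droplets increase to day 8 in both depots, with fewer in IMF. The stromal list, led by DCN, summed to 1533 to 1685 FPKM in BF-0d and 1160 to 1319 in IMF-0d, and to 1364 to 1593 in BF-4d and 1929 to 2036 in IMF-4d. Of the muscle list only DES passed a group mean of 1 FPKM, with a summed list of 29.7 to 45.4 FPKM in IMF-0d, and MYOD1, MYF5, MYF6 and MYMK were listed at 0. The tendon list was nearly all FMOD, with a mean of 421 FPKM before induction in BF and 881 in IMF. The part of these other cell types in the results was not tested, and in bulk RNA fewer cells of a type and less RNA per cell cannot be told apart.

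Collagen genes made up a large share of the transcriptome of both precursors. On day 0 the 39 genes together held 6.17% ± 0.238 of library FPKM in BF and 5.61% ± 0.0303 in IMF. The share was 4.18% ± 1.01, 3.03% ± 0.584 and 3.36% ± 0.0920 in BF-2d, BF-4d and BF-8d. It was 5.57% ± 0.336, 5.43% ± 0.134 and 3.77% ± 0.339 in IMF-2d, IMF-4d and IMF-8d. BF libraries were above IMF libraries on day 0 and below them on day 2 without overlap, and on day 4 they held 2.49% to 3.65% against 5.28% to 5.53%. On day 8 the depots overlapped, at 3.25% to 3.42% and 3.38% to 4.01%. These shares are sums over the genes and were given no test.

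**Figure D1:**
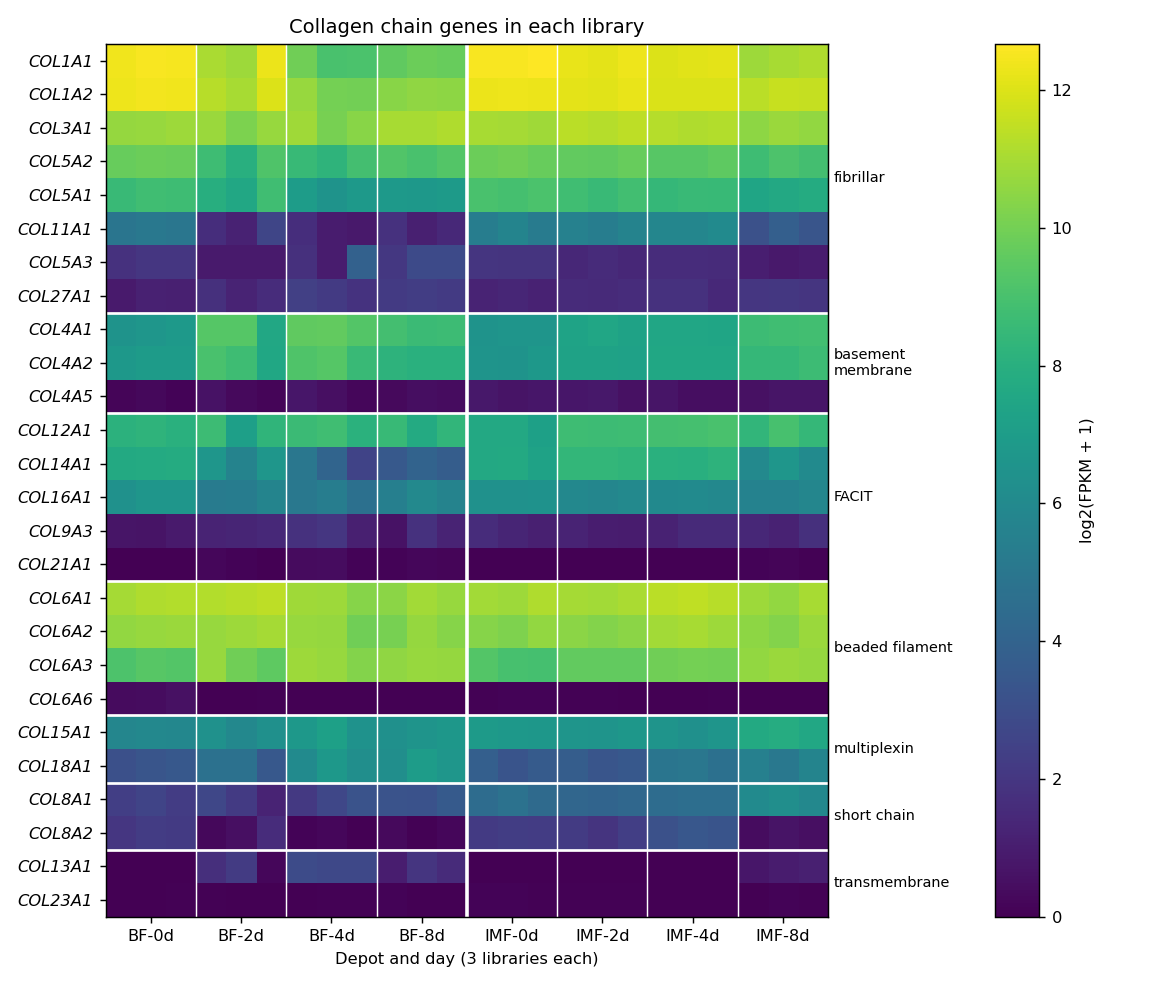
log2(FPKM + 1) of the 26 tested collagen genes (rows, by class and then by level) in each of the 24 libraries (columns, 3 per depot and day). COL1A1 and COL1A2 are the brightest rows on day 0 in both depots and darken by BF-4d, and the IMF columns shift mainly at day 8. The third BF-2d library is the nearest of its group to the BF-0d mean in 14 of the 20 genes that reached 5 FPKM.

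Within that share, every library after day 0 held a smaller fibrillar part than any day 0 library of its depot. In BF the fibrillar sum went from 14217 ± 666 FPKM on day 0 to 3866 ± 1048 on day 4, while the beaded filament sum was 4474 ± 317 and 4692 ± 948. The basement membrane sum went from 218 ± 20.7 to 1259 ± 238 FPKM over the same days. Fibrillar genes held 72.6% ± 0.495 of collagen FPKM in BF-0d, 52.7% ± 10.8 in BF-2d, 37.0% ± 6.69 in BF-4d and 46.6% ± 2.03 in BF-8d. In IMF cells the fibrillar share was 75.7% ± 1.35, 71.0% ± 0.664, 63.2% ± 1.22 and 52.4% ± 2.00 on the same days. Beaded filament genes held 22.8% ± 0.520 on day 0 and 41.9% ± 3.43 on day 8 in BF, against 20.2% ± 1.68 and 35.7% ± 2.59 in IMF. Basement membrane genes were a small share on day 0, 1.11% ± 0.0547 in BF and 0.980% ± 0.0318 in IMF. Their highest mean was 12.1% ± 1.69 in BF-4d, where IMF-4d stood at 1.94% ± 0.0366, and the depots were side by side on day 8 at 6.35% ± 0.922 and 5.81% ± 0.154. FACIT genes kept between 2.37% and 4.42% of collagen FPKM in the group means.

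**Figure D2:**
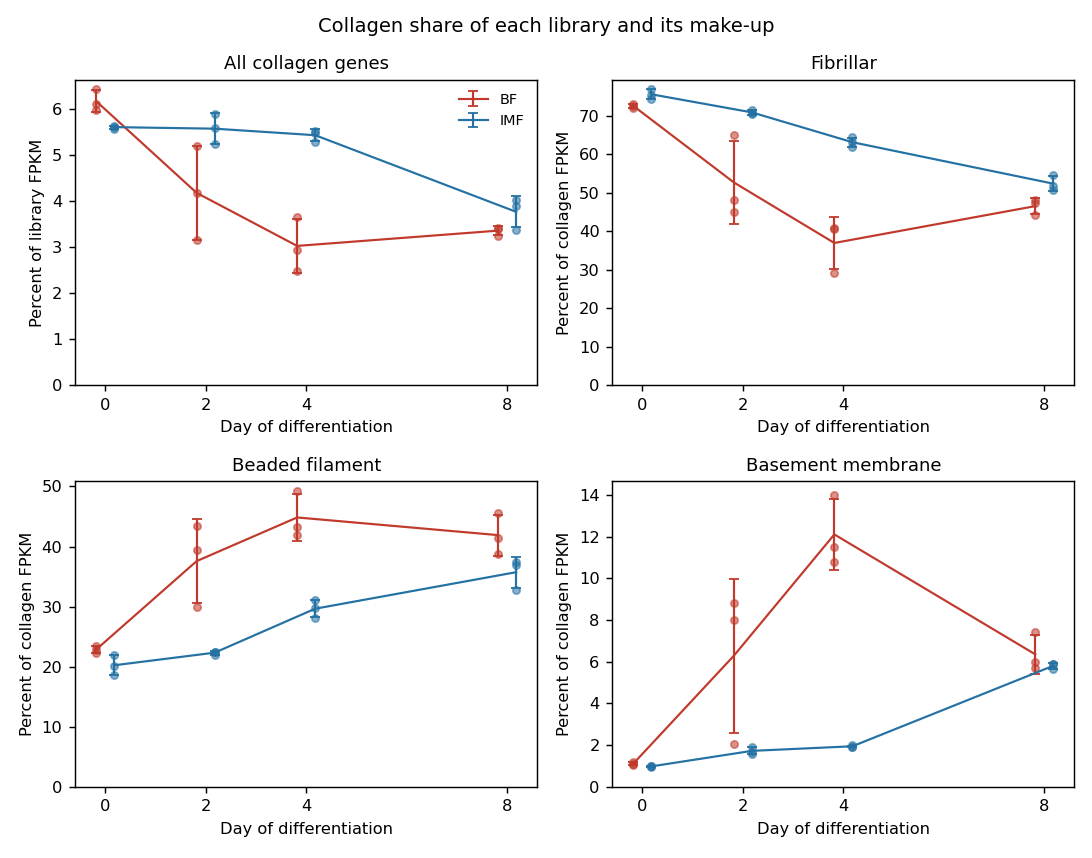
Share of all collagen genes in library FPKM (percent, first panel) and of 3 classes in collagen FPKM (percent, other panels) against day of differentiation, for BF (red) and IMF (blue); points are libraries, lines join means and bars are SD. The fibrillar share falls from 72.6% to 37.0% by day 4 in BF and from 75.7% to 52.4% by day 8 in IMF.

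Counted over the successive days, most calls in BF cells fell before day 4 and most in IMF cells after it. From BF-0d to BF-2d, 4 of the 26 tested collagen genes were called higher (COL4A1, COL4A2, COL13A1 and COL18A1) against 2.71% of all tested genes, and 6 lower (COL1A1, COL5A2, COL8A2, COL11A1, COL14A1 and COL16A1) against 3.87%. From BF-2d to BF-4d, COL13A1 and COL18A1 were called higher (2 of 26, background 2.01%) and COL1A1, COL1A2, COL5A1 and COL14A1 lower (4 of 26, background 1.34%). From BF-4d to BF-8d no collagen gene was called higher by limma (background 1.78%), and only COL13A1 was called lower (1 of 26, background 1.14%). With no fold limit, 4 were higher at an unadjusted p under 0.05, 3 of them at an adjusted p under 0.05. These counts lean on single libraries: the first was 10 genes in all and became 6 without BF-2d replicate 1 and 5 without replicate 2 of that group, and the second fell from 6 genes to 3 without BF-2d replicate 3. The third was 0 without BF-4d replicate 1 or 2 or without BF-8d replicate 1 or 3, and 3 without BF-4d replicate 3. With only the groups compared in the fit, the first 2 counts were 2 and 0. Among the calls from BF-0d to BF-2d, limma lost COL1A1 in 4 of 6 fits without 1 library (adjusted p of 0.0136 to 0.0335), COL14A1 in 5 (0.0112 to 0.0652), COL18A1 in 5 (0.0138 to 0.0553) and COL13A1 in 2. Without BF-2d replicate 3 the differences were -1.56 for COL1A1, -1.58 for COL14A1, 1.42 for COL18A1, 1.97 for COL13A1, 2.01 for COL4A2 and -1.74 for COL8A2, against -1.10, -1.41, 1.0, 1.39, 1.56 and -1.35 with it. Among those from BF-2d to BF-4d, COL1A2 (-0.94) and COL5A1 (-0.99) dropped under the limit of 1 without BF-2d replicate 3, COL1A1 went from -2.05 to -1.59, COL14A1 from -2.45 to -2.28 and COL18A1 from 2.06 to 1.65.

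In IMF cells 1 gene, COL12A1, was called higher from IMF-0d to IMF-2d (background 0.328%), and it was lost in each of the 6 fits that left out 1 library of the groups, with adjusted p of 0.0235 to 0.059 in limma. None was called lower there by limma (background 0.459%), with 1 lower at an adjusted p under 0.05 and no fold limit. From IMF-2d to IMF-4d limma called 0 of 26 in either direction (backgrounds 0.031% higher and 0.0062% lower). With no fold limit, 4 were higher and 0 lower at an unadjusted p under 0.05, and 2 of the 4 at an adjusted p under 0.05. The count of 0 called became 1 without BF-2d replicate 1 and 2 without BF-2d replicate 3, libraries of the other depot that enter through the shared estimate of spread. From IMF-4d to IMF-8d, COL4A1, COL8A1 and COL15A1 were called higher (3 of 26, background 4.16%) and COL1A1, COL8A2, COL11A1 and COL14A1 lower (4 of 26, background 3.08%), and leaving out any 1 of the 24 libraries gave 6 or 7 genes in all. The call of COL1A1 there was lost in 5 of 6 fits without 1 library, at adjusted p of 0.0101 to 0.0195 in limma.

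Over the whole course 9 collagen genes were called in the same direction in both depots. From BF-0d to BF-8d, 6 of 26 were called higher (background 6.28%) and 6 lower (background 7.39%), which is 46.2% of the tested collagen genes. From IMF-0d to IMF-8d, 6 were called higher (background 4.56%) and 5 lower (background 4.49%), which is 42.3%. Among all genes that reached 5 FPKM in a group the shares called were 21.2% in BF and 14.1% in IMF. That is a narrower set, which 6 of the 26 tested collagen genes, COL27A1 among them, did not reach. COL4A1, COL4A2, COL6A3 and COL18A1 were higher and COL1A1, COL5A1, COL8A2, COL11A1 and COL14A1 lower in both depots, 9 genes that make 75.0% of the BF list and 81.8% of the IMF list, and 0 moved in opposite directions. Of all tested genes called over these days, 889 moved the same way in both depots, 40.3% of the BF list and 60.9% of the IMF list, and 12 moved in opposite directions. These contrasts over days 0 to 8 were added after the data were seen. Intervals that follow each other share the libraries of the day between them, and the comparisons of depots use the same libraries again.

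The depots were close on day 0 and furthest apart on day 4. On day 0 only COL8A1 was called, higher in IMF (1 of 26, background 1.87%), and none was called lower by limma (background 0.713%). With no fold limit, 2 were lower at an unadjusted p under 0.05, 1 of them at an adjusted p under 0.05. With a pseudocount of 0.1 the day 0 count was 3. FMOD of the tendon list and DES of the muscle list were also higher in IMF on day 0 (1.06 ± 0.21 and 2.72 ± 0.29), and their part in the COL8A1 difference was not tested. On day 2, COL8A1, COL8A2, COL11A1 and COL14A1 were higher in IMF (4 of 26, background 2.71%) and COL4A1, COL4A2 and COL13A1 lower (3 of 26, background 2.02%), and the count of 7 became 4 without BF-2d replicate 2 and 10 without BF-2d replicate 3. With only the groups compared in the fit, COL11A1 alone was called on day 2 (1 of 26). On day 4, COL1A1, COL1A2, COL5A1, COL8A1, COL8A2, COL11A1 and COL14A1 were higher in IMF (7 of 26, background 6.6%) and COL4A1, COL4A2, COL13A1 and COL18A1 lower (4 of 26, background 4.72%). On day 8, COL1A1, COL8A1, COL11A1, COL14A1 and COL15A1 were higher in IMF (5 of 26, background 4.31%) and COL5A3 and COL18A1 lower (2 of 26, background 2.65%). Among all genes that reached 5 FPKM, 18% were called on day 4 in either direction. The calls of COL4A2 and of COL13A1 on day 2 were each lost in 4 of 6 fits without 1 library. Without BF-2d replicate 3 the day 2 differences were -1.61 for COL4A2, -1.97 for COL13A1, 1.76 for COL8A2 and 2.20 for COL14A1, against -1.15, -1.39, 1.36 and 2.03 with it. LPL of the adipocyte list stood at 222 ± 78.5 FPKM in BF-4d and 5.50 ± 0.884 in IMF-4d, while the rest of that list summed to 116 to 162 and 151 to 161 FPKM, overlapping. DCN of the stromal list was higher in IMF on day 4, at 597 ± 119 FPKM in BF-4d and 1373 ± 47.0 in IMF-4d (1.22 ± 0.12). The part of these markers in the day 4 differences was not tested.

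**Figure D3:**
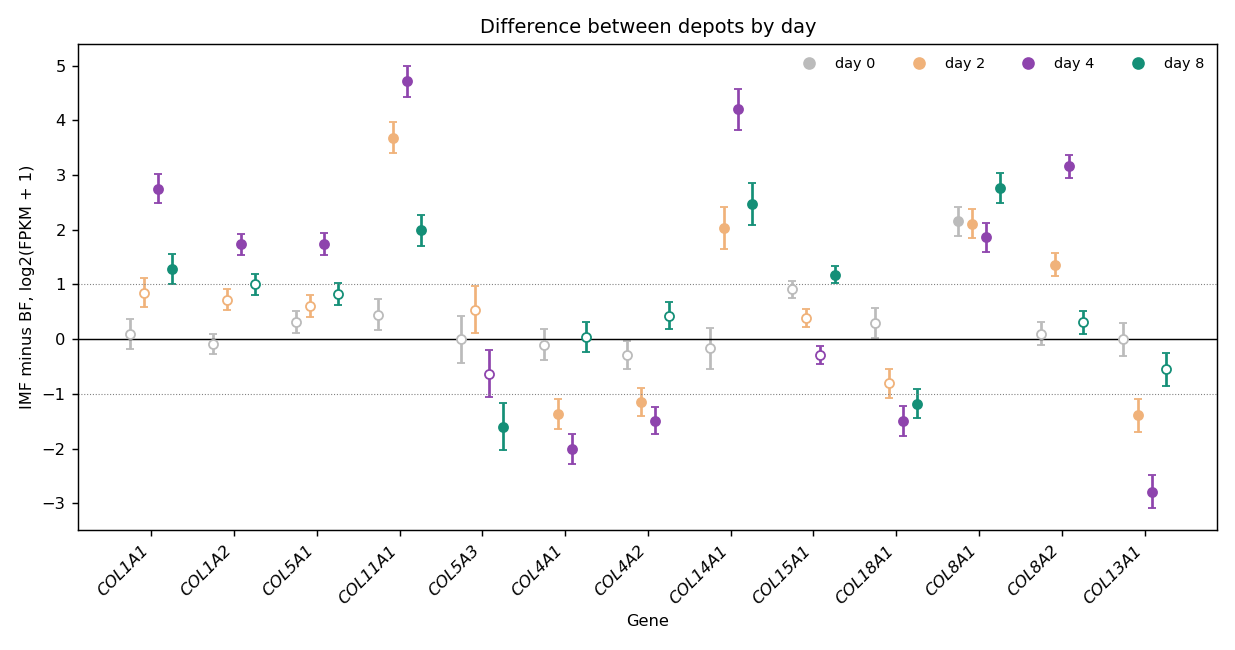
IMF minus BF difference of log2(FPKM + 1) with its SE (vertical axis) for the 13 collagen genes called between depots on 1 or more days, at days 0, 2, 4 and 8 (grey, orange, purple, green); filled points were called and dotted lines mark a difference of 1. Most purple points (day 4) lie furthest from 0, and COL8A1 is filled on all 4 days.

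The difference of the depots in their change was tested directly, as IMF minus BF. It was called for COL11A1 alone from day 0 to day 2 (1 of 26, background 2.45%) and for COL1A1 and COL8A2 from day 2 to day 4 (2 of 26, background 3.06%). From day 4 to day 8 it was called for 9 of 26 (background 6.39%), positive for COL4A1, COL4A2, COL13A1 and COL15A1 and negative for COL1A1, COL3A1, COL5A2, COL8A2 and COL11A1. Over days 0 to 8 it was called for COL1A2, COL11A1 and COL14A1 (3 of 26, background 4.98%). The first count became 10 without BF-2d replicate 3, 3 without BF-4d replicate 3 and 2 without BF-2d replicate 1 or BF-4d replicate 1. The second became 7, 6 and 4 without BF-2d replicate 2, BF-4d replicate 1 and BF-2d replicate 1, and 1 without IMF-4d replicate 2. The last was 5 without BF-2d replicate 3 and 1 in 15 of the other fits that left out 1 library, COL14A1 being the one kept in each fit without a library of its own 4 groups.

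Among the fibrillar genes, 4 of 8 tested were called lower (background 7.39%) and 1 higher (background 6.28%) from BF-0d to BF-8d, with a median difference of -1.25 against -0.06 over all tested genes. From IMF-0d to IMF-8d, 3 of 8 were called lower (background 4.49%) and 0 higher by limma (background 4.56%), with a median of -0.92 against -0.05. There COL27A1 was higher at an adjusted p under 0.01 but under the limit of 1. COL1A1 and COL1A2 encode the chains of type I collagen, the main protein of connective tissue fibrils, and were the highest collagen genes on day 0 in both depots. In BF cells COL1A1 (ENSSSCG00000036135, chr12:26379087-26397180, Sscrofa11.1) stood at 5341, 6050 and 5869 FPKM on day 0, at 2111, 1806 and 5072 on day 2, at 969, 526 and 534 on day 4, and at 776, 917 and 843 on day 8. The IMF libraries stood at 5944, 5942 and 6518 FPKM on day 0, at 4790, 4518 and 5206 on day 2, at 4148, 4429 and 4516 on day 4, and at 1808, 2063 and 2316 on day 8. Every BF-4d and BF-8d library was below every IMF library, and the depots overlapped on days 0 and 2, on day 2 through BF-2d replicate 3. From day 0 to day 8 COL1A1 fell 6.81-fold in BF (log2 difference -2.77 ± 0.27, adjusted p = 6.03e-08) and 2.98-fold in IMF (-1.58 ± 0.27, adjusted p = 9.79e-05). On day 4 it was 6.45-fold higher in IMF (2.75 ± 0.27, adjusted p = 1.21e-07) and on day 8 2.44-fold higher (1.28 ± 0.27, adjusted p = 8.70e-04).

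COL1A2 (ENSSSCG00000015326) had values of 5233, 5538 and 5473 FPKM in BF-0d, 2559, 2082 and 4121 in BF-2d, 1689, 1031 and 999 in BF-4d, and 1391, 1516 and 1445 in BF-8d. In IMF cells COL1A2 had 5000, 5158 and 5051 FPKM on day 0, 4602, 4345 and 4865 on day 2, 3997, 3952 and 3997 on day 4, and 2594, 3108 and 3026 on day 8. The loss was thus steep in BF by day 4 and shallow in IMF, with every BF library above every IMF library on day 0 and below every one on days 2, 4 and 8. It was called from BF-0d to BF-8d at 3.73-fold lower (-1.90 ± 0.19, adjusted p = 1.29e-07), and from IMF-0d to IMF-8d its difference of -0.81 ± 0.19 (adjusted p = 0.00261) was under the limit of 1. The difference of these changes was 1.09 ± 0.27 (adjusted p = 0.00846), a call lost in each of the 12 fits that left out 1 library of the groups, at adjusted p of 0.011 to 0.0225. On day 4 COL1A2 was 3.21-fold higher in IMF (1.73 ± 0.19, adjusted p = 7.53e-07). COL1A1 fell more than COL1A2, so that their FPKM ratio was 1.06 ± 0.0370 in BF-0d, 0.974 ± 0.223 in BF-2d, 0.539 ± 0.0322 in BF-4d and 0.582 ± 0.0236 in BF-8d. In IMF the ratio was 1.21 ± 0.0717, 1.05 ± 0.0173, 1.10 ± 0.0508 and 0.709 ± 0.0518 on the same days, and the ranges of BF-4d (0.510 to 0.574) and IMF-4d (1.04 to 1.13) did not overlap.

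The 250 bases before the annotated start of COL1A2 and of COL11A1 are printed because COL1A2 encodes a chain of type I collagen, which led on day 0, and COL11A1 had the largest log2 difference between depots on days 2 and 4. They were read from the RefSeq genome, Sscrofa11.1, plus strand, 5′ to 3′, at chr9:74174234-74174483 and chr4:115638131-115638380. Capitals mark matches on either strand to CCAAT (the CCAAT box) and to TATAAA (the TATA box).
COL1A2: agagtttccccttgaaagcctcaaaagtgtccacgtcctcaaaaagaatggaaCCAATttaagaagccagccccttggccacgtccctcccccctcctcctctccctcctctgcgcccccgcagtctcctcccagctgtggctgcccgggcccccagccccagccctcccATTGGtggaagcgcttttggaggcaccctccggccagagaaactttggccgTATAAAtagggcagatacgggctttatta
COL11A1: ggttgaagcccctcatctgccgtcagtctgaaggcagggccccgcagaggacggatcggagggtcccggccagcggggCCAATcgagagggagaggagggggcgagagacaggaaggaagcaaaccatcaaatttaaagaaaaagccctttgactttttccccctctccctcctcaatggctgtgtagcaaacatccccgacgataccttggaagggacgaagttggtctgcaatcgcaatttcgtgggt
The COL1A2 window holds CCAAT letters at 197 and 80 bases and TATAAA at 29 bases before the start, and the COL11A1 window holds CCAAT letters at 172 bases and no TATAAA. Of 19556 windows of this length before annotated starts, 31.9% hold CCAAT, 9.77% TATAAA and 45.9% GGGCGG (the GC box), on either strand. Among 37 collagen genes with a window, 16 hold CCAAT (43.2%), 8 TATAAA (21.6%) and 19 GGGCGG (51.4%), as letters only.

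COL11A1 (ENSSSCG00000006857, chr4:115638381-115841679), which encodes a chain of the minor fibrillar type XI collagen that nucleates thin fibrils, had the largest difference between depots on the log2(FPKM + 1) scale on days 2 and 4. In BF cells it was at 29.1, 33.0 and 30.6 FPKM on day 0, at 2.15, 1.35 and 5.26 on day 2, at 2.21, 0.957 and 0.826 on day 4, and at 2.44, 1.19 and 1.77 on day 8. IMF cells had 39.8, 52.4 and 37.0 FPKM on day 0, 46.6, 39.7 and 49.3 on day 2, 54.7, 54.6 and 65.5 on day 4, and 7.96, 13.3 and 9.23 on day 8. The BF level was thus lost within the 2 days of induction, while the IMF level was kept to day 4 and lost by day 8. From BF-0d to BF-2d it fell 10.6-fold (-3.15 ± 0.28, adjusted p = 1.06e-07, and 17.7-fold and -3.55 without BF-2d replicate 3), and from IMF-4d to IMF-8d 5.74-fold (-2.43 ± 0.28, adjusted p = 1.42e-06). COL11A1 was higher in IMF 15.5-fold on day 2 (25.8-fold without BF-2d replicate 3), 43.8-fold on day 4 (4.71 ± 0.28, adjusted p = 1.93e-10) and 5.64-fold on day 8, and on day 0, where the libraries did not overlap either, its difference was 0.45 ± 0.28 (adjusted p = 0.331). The change between days 0 and 2 differed between depots by 3.22 ± 0.39 (adjusted p = 7.04e-05), or 3.63 without BF-2d replicate 3. That between days 4 and 8 differed by -2.72 ± 0.39 (adjusted p = 7.24e-05). The call of 1.54 for days 0 to 8 was lost in 9 of 12 fits without 1 library of the groups.

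COL5A1 and COL5A2 encode chains of type V collagen, which is built into type I fibrils and limits their width. COL5A1 had means of 419 ± 32.9, 292 ± 126, 111 ± 20.2 and 111 ± 5.76 FPKM in BF and 518 ± 28.4, 423 ± 35.8, 368 ± 19.1 and 198 ± 22.0 in IMF on days 0, 2, 4 and 8. It fell in both depots from day 0 to day 8, 3.77-fold in BF (-1.90 ± 0.20, adjusted p = 1.46e-07) and 2.62-fold in IMF (-1.39 ± 0.20, adjusted p = 1.34e-05), and was 3.32-fold higher in IMF on day 4 (1.74 ± 0.20, adjusted p = 7.96e-07). COL5A2 had means of 883 ± 29.7, 420.1 ± 167, 380 ± 87.4 and 583 ± 47.3 FPKM in BF and 895 ± 62.4, 789 ± 42.6, 692 ± 48.9 and 487 ± 71.6 in IMF. It fell 2.10-fold from BF-0d to BF-2d (-1.15 ± 0.21, adjusted p = 3.00e-04), a call lost without BF-2d replicate 2 (-0.83) and at -1.44 without replicate 3 of that group. Its change from day 4 to day 8 differed between the depots by -1.15 ± 0.29 (adjusted p = 0.0093), which was lost in 10 of 12 fits without 1 library. The ratio of COL5A1 to COL5A2 was 0.474 ± 0.0249 in BF-0d, 0.699 ± 0.0961 in BF-2d, 0.298 ± 0.0561 in BF-4d and 0.191 ± 0.00815 in BF-8d. In IMF it was 0.582 ± 0.0720, 0.535 ± 0.0262, 0.534 ± 0.0432 and 0.410 ± 0.0572 on the same days.

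COL3A1, the chain of type III collagen found in loose and elastic tissues, did not follow COL1A1. Its values were 1607, 1708 and 1819 FPKM in BF-0d, 1710, 1158 and 1680 in BF-2d, 1878, 1077 and 1391 in BF-4d, and 2083, 2030 and 2281 in BF-8d. In IMF cells they were 2065, 2003 and 1856 FPKM on day 0, 2605, 2492 and 2719 on day 2, 2459, 2274 and 2370 on day 4, and 1485, 1740 and 1594 on day 8. The depots crossed: every IMF library was above every BF library on days 0, 2 and 4 and below every one on day 8. No pairwise difference of COL3A1 was called, with 0.80 ± 0.16 on day 2 (adjusted p = 0.00137) and -0.41 ± 0.16 on day 8 (adjusted p = 0.0554). The difference of the depots in the change from day 4 to day 8 was called at -1.15 ± 0.23 (adjusted p = 0.00145), and not without BF-4d replicate 2 (-0.96). The FPKM ratio of COL1A1 to COL3A1 was 3.36 ± 0.161 in BF-0d and 0.398 ± 0.0468 in BF-8d, and 3.12 ± 0.343 and 1.29 ± 0.146 in IMF. COL3A1 and COL5A2 lie 16177 bases apart on chromosome 15, as convergent genes.

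The other fibrillar genes were low. COL27A1 had means between 1.11 ± 0.199 (BF-0d) and 3.59 ± 0.234 FPKM (BF-8d), was called 3.24-fold higher from BF-0d to BF-8d (1.12 ± 0.14, adjusted p = 1.39e-06) and was at 1.44 ± 0.148 and 3.03 ± 0.137 FPKM in IMF-0d and IMF-8d (0.72 ± 0.14, adjusted p = 3.47e-04). COL5A3 was between 0.853 and 6.28 FPKM in all libraries but BF-4d replicate 3, which held 14.3 FPKM against 2.38 and 0.931 in the other BF-4d libraries. On day 8 it was 5.29-fold lower in IMF (-1.60 ± 0.43, adjusted p = 0.0061), lost in 5 of 6 fits without 1 library. COL2A1 and COL11A2, genes of cartilage fibrils, were not tested, and SOX9, a regulator of cartilage genes, had group means of 3.63 to 9.20 FPKM.

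**Figure D4:**
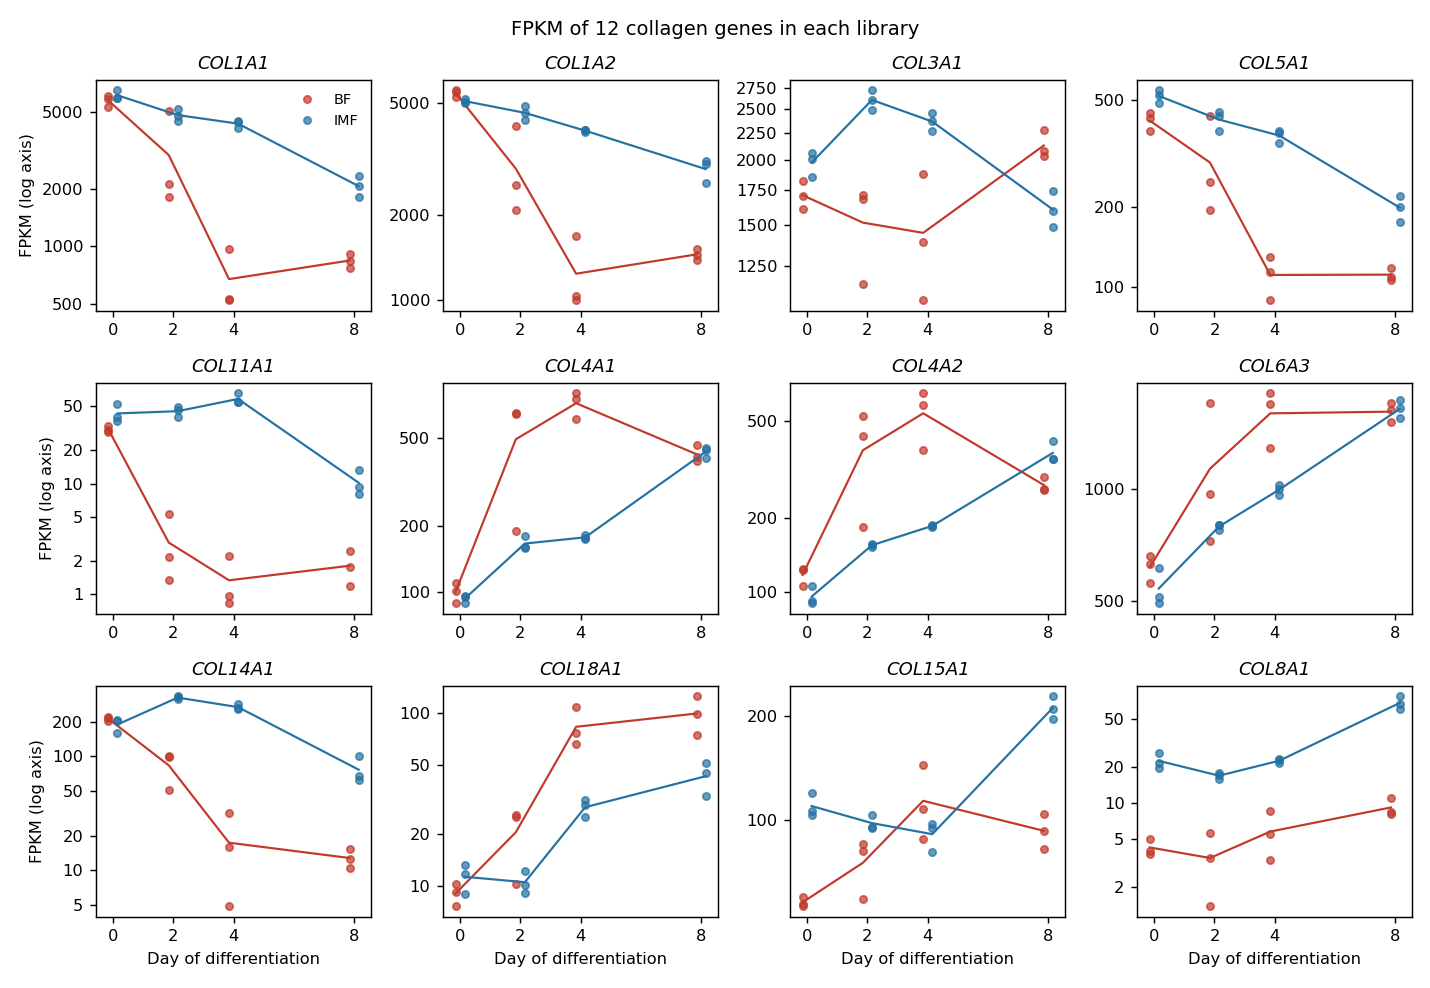
FPKM on a log axis (vertical) against day of differentiation for 12 collagen genes in BF (red) and IMF (blue); points are the 3 libraries of a group and lines join the means. COL1A1, COL5A1, COL11A1 and COL14A1 fall by day 4 in BF and by day 8 in IMF, and COL4A1 and COL4A2 are above their day 0 level on day 8 in both depots, where the depots overlap for COL4A1 and BF lies below IMF for COL4A2.

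Type IV collagen rose. COL4A1 and COL4A2 encode the chains of the type IV collagen found in nearly every basement membrane, and they were the only genes of the class above 1 FPKM. The class had a median difference of 1.21 from BF-0d to BF-8d and of 1.94 from IMF-0d to IMF-8d over its 3 tested genes. The genes lie head to head on chromosome 11, and the stretch between the annotated start of COL4A1 and the nearer of the annotated starts of COL4A2 is printed because both genes rose together. It is chr11:76997410-76997542 of Sscrofa11.1, 133 bases, plus strand, 5′ to 3′, with COL4A1 running to the left on the minus strand and COL4A2 to the right, and capitals mark matches on either strand to CCAAT and to GGGCGG.
COL4A1-COL4A2: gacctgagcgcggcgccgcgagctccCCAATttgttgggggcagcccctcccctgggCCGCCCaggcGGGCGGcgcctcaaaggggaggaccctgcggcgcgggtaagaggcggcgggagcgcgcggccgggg
The interval holds CCAAT at base 27 and the GC box letters at bases 58 and 68 from its left end, where windows of 133 bases before annotated starts hold them in 21.5% and 39.1% of 19557 cases. Another annotated model of COL4A2 starts within COL4A1, so that the gene models overlap by 525 bases. The strand setting of the quantification is not given in the sources used here, so reads from the overlapped bases cannot be assigned to either gene.

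In BF cells COL4A1 (ENSSSCG00000044700) was at 89.2, 101 and 110.0 FPKM on day 0, at 649, 646 and 190.3 on day 2, at 754, 801 and 611 on day 4, and at 467, 393 and 410 on day 8. In IMF cells it was at 89.2, 95.0 and 95.8 FPKM on day 0, at 160, 181 and 158 on day 2, at 182, 177 and 174 on day 4, and at 407, 445 and 454 on day 8. BF cells thus had their highest mean on day 4, every BF library was above every IMF library on days 2 and 4, and on day 8 the depots overlapped. COL4A1 rose 4.94-fold from BF-0d to BF-2d (2.10 ± 0.28, adjusted p = 1.69e-05, and 2.68 without BF-2d replicate 3) and 2.45-fold from IMF-4d to IMF-8d (1.29 ± 0.28, adjusted p = 0.00156). On day 4 it was 4.06-fold lower in IMF (-2.01 ± 0.28, adjusted p = 1.21e-05), and on day 8 the difference was 0.04 ± 0.28 (adjusted p = 0.93). The difference of the depots in the change from day 4 to day 8 was 2.05 ± 0.40 (adjusted p = 0.00128) and was kept in 12 of 12 fits without 1 library. The day 2 call of -1.37 ± 0.28 was -1.96 without BF-2d replicate 3 and was lost without BF-2d replicate 1 or 2, at adjusted p of 0.0128 and 0.0171.

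COL4A2 (ENSSSCG00000009545) moved with it, with means of 117 ± 10.6, 379 ± 175, 537 ± 139 and 274 ± 18.8 FPKM in BF and 95.7 ± 8.50, 155 ± 2.26, 186 ± 1.69 and 370.1 ± 38.7 in IMF on days 0, 2, 4 and 8. It rose 2.33-fold from BF-0d to BF-8d (1.21 ± 0.25, adjusted p = 4.63e-04) and 3.87-fold from IMF-0d to IMF-8d (1.94 ± 0.25, adjusted p = 4.80e-06), and was 2.89-fold lower in IMF on day 4 (-1.49 ± 0.25, adjusted p = 7.97e-05). The BF-8d and IMF-8d libraries of COL4A2 did not overlap, at 262 to 295 and 348 to 415 FPKM, but at 0.43 ± 0.25 (adjusted p = 0.193) the gene was not called. The chains were not kept in 1 proportion: the ratio of COL4A1 to COL4A2 was 0.853 ± 0.0293 in BF-0d and 1.55 ± 0.0477 in BF-8d, and 0.979 ± 0.0742 and 1.18 ± 0.0929 in IMF. COL4A5 had 0.105 to 0.786 FPKM per library and was called nowhere, and COL4A3, COL4A4 and COL4A6, chains of kidney, lung and smooth muscle basement membranes, were not tested.

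**Figure D5:**
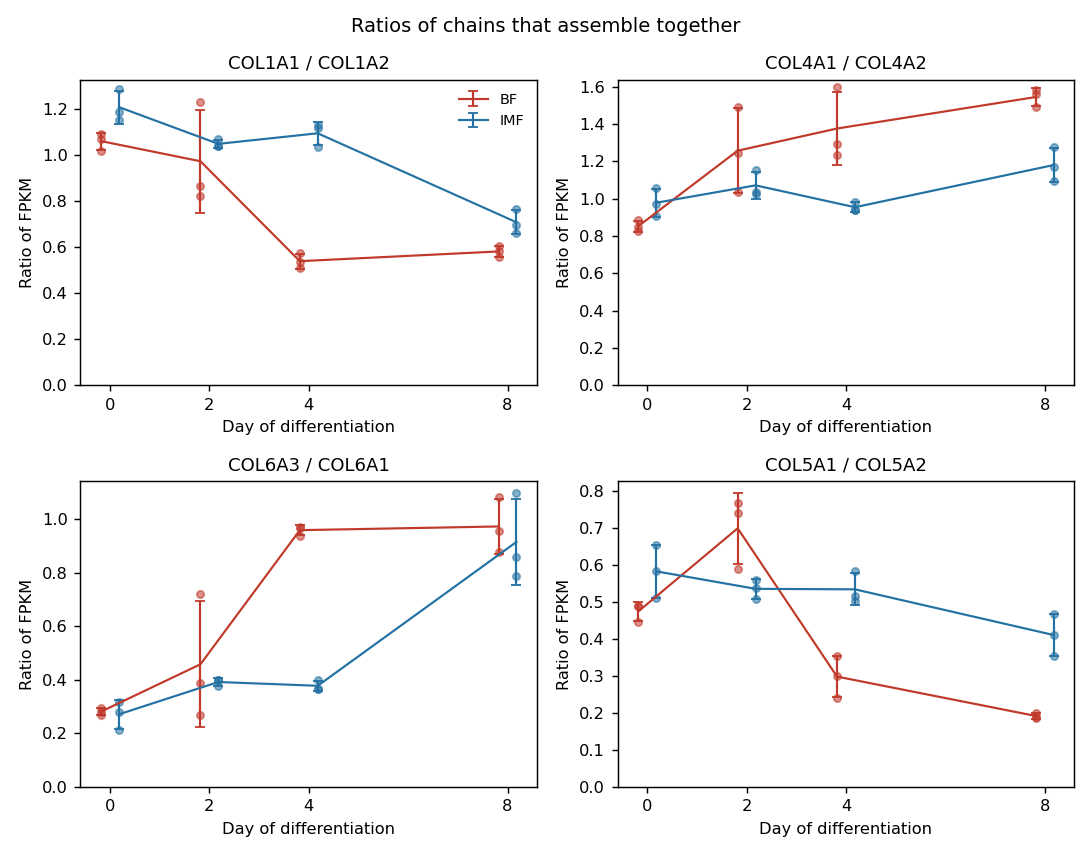
Ratio of the FPKM of 2 chains of the same collagen type (vertical axis) against day of differentiation in BF (red) and IMF (blue); points are libraries, lines join means and bars are SD. COL1A1 over COL1A2 drops to 0.539 in BF-4d with IMF-4d at 1.10, and COL6A3 over COL6A1 climbs to 0.972 in BF-8d and 0.914 in IMF-8d.

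Of the 5 FACIT genes tested, COL12A1, COL14A1 and COL16A1 were expressed, and the medians of the class from day 0 to day 8 were 0.05 in BF and 0.10 in IMF. COL14A1 (ENSSSCG00000005997, chr4:18690197-18925111), a collagen that binds the surface of type I fibrils, was the FACIT gene that changed most. In BF cells it was at 203, 215 and 221 FPKM on day 0, at 98.9, 50.2 and 101 on day 2, at 31.6, 15.9 and 4.82 on day 4, and at 10.5, 15.5 and 12.5 on day 8. The IMF libraries were at 203, 209 and 158 FPKM on day 0, at 335, 330.2 and 316 on day 2, at 263, 258 and 288 on day 4, and at 62.3, 99.8 and 66.5 on day 8. From day 2 on every BF library was below every IMF library of the same day. COL14A1 fell 16.7-fold from BF-0d to BF-8d (-3.97 ± 0.38, adjusted p = 6.47e-08) and 2.49-fold from IMF-0d to IMF-8d (-1.33 ± 0.38, adjusted p = 0.00981). The second of these was lost in 5 of 6 fits without 1 library, but the fall from IMF-4d to IMF-8d (-1.84 ± 0.38, adjusted p = 9.71e-04) was kept in 6 of 6. Over days 0 to 8 the depots differed by 2.64 ± 0.54 (adjusted p = 0.00202), kept in 12 of 12. On day 4 COL14A1 was 15.5-fold higher in IMF (4.20 ± 0.38, adjusted p = 5.58e-08), or 26.1-fold without BF-4d replicate 1, and on day 8 5.96-fold higher (2.47 ± 0.38, adjusted p = 5.60e-05).

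COL12A1, the other FACIT collagen of dense connective tissue, had no such fall. Its BF means were 282 ± 19.6, 286 ± 134, 370.1 ± 91.3 and 300.4 ± 80.2 FPKM on days 0, 2, 4 and 8, and its IMF means 181 ± 29.5, 420.3 ± 11.95, 493 ± 28.2 and 388 ± 95.1. From IMF-0d to IMF-8d it was called 2.15-fold higher (1.08 ± 0.28, adjusted p = 0.00472), lost in 4 of 6 fits without 1 library. COL16A1, a minor FACIT collagen, fell 2.24-fold from BF-0d to BF-2d (-1.15 ± 0.15, adjusted p = 1.21e-05, and -1.30 without BF-2d replicate 3), from 95.4 ± 9.22 to 42.6 ± 7.70 FPKM, and was at 32.7 ± 7.76 in BF-4d and 50.9 ± 8.95 in BF-8d. In IMF cells COL16A1 was at 85.0 ± 1.08, 59.0 ± 2.82, 63.1 ± 3.18 and 50.4 ± 3.51 FPKM, and no IMF interval was called. COL9A3 had 0.561 to 2.98 FPKM per library and COL21A1 at most 0.321, and COL22A1 was listed at 0 in all 24 libraries.

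Type VI collagen, the beaded filament collagen that surrounds fat cells and muscle fibres, was kept at a high level. COL6A1 had group means between 1669 ± 291 (BF-4d) and 2648 ± 155 FPKM (IMF-4d) and COL6A2 between 1341 ± 269 (BF-8d) and 1910 ± 138 FPKM (IMF-4d), and neither was called in any comparison. COL6A3 (ENSSSCG00000027331), the long chain that carries the endotrophin fragment, was different. In BF cells it was at 557, 662 and 627 FPKM on day 0, at 1706, 970.2 and 727 on day 2, at 1809, 1695 and 1292 on day 4, and at 1510, 1700 and 1634 on day 8. The IMF values were 614, 513 and 493 FPKM on day 0, 802, 778 and 800.0 on day 2, 965, 1025 and 1000 on day 4, and 1549, 1736 and 1648 on day 8. The depots began and ended at overlapping levels, with every BF-4d library above every IMF-4d library. COL6A3 was called in no single interval, but rose 2.62-fold from BF-0d to BF-8d (1.39 ± 0.20, adjusted p = 9.70e-06) and 3.05-fold from IMF-0d to IMF-8d (1.61 ± 0.20, adjusted p = 3.19e-06), each kept in 6 of 6 fits without 1 library. The ratio of COL6A3 to COL6A1 was 0.281 ± 0.0124 in BF-0d, 0.458 ± 0.235 in BF-2d, 0.958 ± 0.0177 in BF-4d and 0.972 ± 0.103 in BF-8d. In IMF the ratio was 0.271 ± 0.0535, 0.391 ± 0.0139, 0.377 ± 0.0196 and 0.914 ± 0.161, and the ranges of the depots were apart on day 4 alone. COL6A6 stayed at or under 0.475 FPKM, and COL6A5 was not tested.

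The multiplexins are collagens of basement membrane zones that carry anti-angiogenic C-terminal fragments. Over the course COL18A1 was called in both depots and COL15A1 at the last IMF interval. COL18A1 (ENSSSCG00000038089), the source of endostatin, was at 7.57, 9.15 and 10.2 FPKM in BF-0d, at 25.8, 25.2 and 10.2 in BF-2d, at 66.0, 108 and 76.6 in BF-4d, and at 75.4, 126 and 98.8 in BF-8d. IMF cells were at 13.2, 8.94 and 11.6 FPKM on day 0, at 12.2, 9.07 and 10.1 on day 2, at 29.4, 31.2 and 24.9 on day 4, and at 45.2, 33.1 and 51.4 on day 8. On days 4 and 8 every BF library was above every IMF library. COL18A1 rose 11.12-fold from BF-0d to BF-8d (3.32 ± 0.27, adjusted p = 7.78e-09) and 3.84-fold from IMF-0d to IMF-8d (1.84 ± 0.27, adjusted p = 2.26e-05), but the difference of these changes was not called (-1.47 ± 0.39, adjusted p = 0.0113). It was 2.93-fold lower in IMF on day 4 (-1.50 ± 0.27, adjusted p = 1.76e-04) and 2.31-fold lower on day 8 (-1.18 ± 0.27, adjusted p = 0.0020), the latter lost without BF-8d replicate 2 or IMF-8d replicate 2.

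COL15A1 (ENSSSCG00000005380) was called over time only from IMF-4d to IMF-8d. Its BF means were 57.6 ± 1.90, 75.0 ± 14.0, 113 ± 28.7 and 92.8 ± 10.9 FPKM on days 0, 2, 4 and 8. Every BF-4d and BF-8d library was above every BF-0d library. The rise from BF-0d to BF-8d had an adjusted p under 0.05 in limma but was under the limit of 1. In IMF cells it was at 120, 106 and 103 FPKM on day 0, at 95.5, 94.6 and 103 on day 2, at 94.8, 80.6 and 96.9 on day 4, and at 210, 228 and 196 on day 8. Every IMF-0d library was above every BF-0d library, at a difference under the limit of 1 (1.90-fold, 0.91 ± 0.16, adjusted p = 3.12e-04). The IMF-8d libraries were above every other library of either depot. COL15A1 rose 2.32-fold from IMF-4d to IMF-8d (1.21 ± 0.16, adjusted p = 6.21e-06) and was 2.27-fold higher in IMF on day 8 (1.18 ± 0.16, adjusted p = 8.46e-06, not called after quantile normalization). The difference of the depots in the change from day 4 to day 8 was 1.47 ± 0.22 (adjusted p = 1.04e-04).

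The short chain network collagens, type VIII, of which COL8A1 and COL8A2 encode the chains, form lattices under some endothelia and around smooth muscle. COL8A1 (ENSSSCG00000011973) was the collagen gene called between depots before induction. It was at 4.02, 5.02 and 3.79 FPKM in BF-0d, at 5.59, 3.51 and 1.39 in BF-2d, at 3.36, 5.50 and 8.52 in BF-4d, and at 8.41, 8.06 and 11.09 in BF-8d. The IMF libraries were at 21.3, 26.2 and 19.7 FPKM on day 0, at 17.0, 15.7 and 17.9 on day 2, at 21.4, 23.1 and 22.9 on day 4, and at 66.9, 76.8 and 60.1 on day 8. No BF library reached the lowest IMF library on any day. COL8A1 was higher in IMF 5.24-fold on day 0 (2.15 ± 0.27, adjusted p = 1.00e-05), 4.83-fold on day 2 (log2 difference 2.11, and 1.71 without BF-2d replicate 3), 3.88-fold on day 4 and 7.39-fold on day 8 (2.76 ± 0.27, adjusted p = 2.21e-07), each kept in 6 of 6 fits without 1 library, although the day 2 call was lost with only the groups compared. It rose 3.02-fold from IMF-4d to IMF-8d (1.55 ± 0.27, adjusted p = 1.84e-04).

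COL8A2 was lower and moved the other way. In BF cells it was at 2.99, 3.85 and 3.47 FPKM on day 0, at 0.228, 0.417 and 2.01 on day 2, and at or under 0.268 on days 4 and 8. COL8A2 was in IMF cells at 3.52, 3.87 and 3.78 FPKM on day 0, at 3.66, 2.76 and 4.05 on day 2, at 7.71, 9.71 and 8.94 on day 4, and at 0.323, 0.572 and 0.446 on day 8. The IMF level thus reached its maximum on day 4, just before its loss. COL8A2 fell 8.34-fold from IMF-0d to IMF-8d (-1.71 ± 0.21, adjusted p = 3.24e-06) and 20.9-fold from BF-0d to BF-8d (-1.93 ± 0.21, adjusted p = 3.77e-07). On day 4 it was 96.6-fold higher in IMF by mean FPKM (161.5-fold without BF-4d replicate 2) and 3.16 ± 0.21 on the log2(FPKM + 1) scale (adjusted p = 1.11e-09), where the added 1 holds down the difference of a gene this low. The change of COL8A2 between days 2 and 4 differed between depots by 1.80 ± 0.30 (adjusted p = 0.00104), or 1.41 without BF-2d replicate 3. The next interval differed by -2.85 ± 0.30 (adjusted p = 2.71e-06).

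COL13A1 (ENSSSCG00000010256), a transmembrane collagen of cell adhesion sites, was the member nearest to an on and off pattern. It was listed at 0 in each library of BF-0d, IMF-0d, IMF-2d and IMF-4d. In BF cells it was at 2.32, 3.65 and 0.157 FPKM on day 2, at 6.32, 5.69 and 5.73 on day 4, and at 1.02, 2.81 and 1.97 on day 8, and in IMF cells it was first above 0 on day 8, at 0.716, 0.968 and 1.16 FPKM. No fold is given against groups listed at 0, and the fitted differences depend on the pseudocount. It was called higher in BF on day 4 (IMF minus BF -2.79 ± 0.30, adjusted p = 5.31e-07), and the depots differed in the change from day 4 to day 8 (2.24 ± 0.43, adjusted p = 0.00109). The rise from BF-2d to BF-4d was not called without BF-2d replicate 3 (0.81), the fall from BF-4d to BF-8d was lost in 4 of 6 fits without 1 library, and the day 2 difference in 4 of 6. COL23A1 had at most 0.102 FPKM, and COL17A1 and COL25A1 were not tested.

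The 13 genes that were not tested had at most 0.153 FPKM in any library. Beside those named above they are COL9A1, COL10A1 and COL19A1. By level, the group means of 13 collagen genes passed 100 FPKM somewhere and those of 6 passed 1000 FPKM: COL1A1, COL1A2, COL3A1, COL6A1, COL6A2 and COL6A3. On day 0 the order in BF was COL1A1 and COL1A2, whose library ranges overlapped, then COL6A1, then COL3A1 and COL6A2, which overlapped. In BF-8d COL3A1 led without overlap, followed by COL6A1, COL6A3, COL1A2 and COL6A2, each overlapping the next, and COL1A1 was sixth.

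The genes that modify and assemble collagen did not move as 1 group. Their counts stand beside 6.28% of all tested genes called higher and 7.39% lower from BF-0d to BF-8d, and 4.56% and 4.49% from IMF-0d to IMF-8d. Of 12 tested genes for hydroxylation and glycosylation of the chains, PLOD1, PLOD2 and P3H1 were called higher from BF-0d to BF-8d and none lower, and none was called in either direction from IMF-0d to IMF-8d. PLOD2, a lysyl hydroxylase for crosslink sites, went from 55.8 ± 3.36 to 132 ± 11.8 FPKM in BF (1.23 ± 0.20, adjusted p = 3.76e-05) and from 76.6 ± 4.81 in IMF-4d to 161 ± 36.2 in IMF-8d (1.04 ± 0.20, adjusted p = 4.46e-04). The difference of the depots from day 0 to day 2 was negative and called for 4 of these 12, led by P3H1, PLOD3 and PLOD1, where 2.45% of all tested genes were called in either direction. The medians over the list were 0.46 in BF and 0.57 in IMF over days 0 to 8, against -0.06 and -0.05 for all tested genes.

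Of 10 tested genes for folding and export, CREB3L1, SERPINH1 and MIA3 were called lower from BF-0d to BF-8d and CREB3L1 from IMF-0d to IMF-8d. SERPINH1, the collagen chaperone HSP47, was at 472 ± 30.0 FPKM in BF-0d and 180 ± 63.7 in BF-4d, and at 500.2 ± 59.4 and 463 ± 27.4 in IMF-0d and IMF-4d, and was higher in IMF on day 4 (1.41 ± 0.21, adjusted p = 2.46e-05). CREB3L1, a transcription factor of the secretory pathway known to act on type I collagen genes, fell from 79.1 ± 5.14 to 21.6 ± 9.32 FPKM in BF by day 4 and from 55.1 ± 1.52 in IMF-4d to 24.4 ± 3.09 in IMF-8d (-1.15 ± 0.24, adjusted p = 8.08e-04). On day 4 it was higher in IMF (1.38 ± 0.24, adjusted p = 8.95e-05), as were COL1A1 and COL1A2. Among 10 genes of procollagen trimming and fibril assembly, SPARC and ADAMTS2, the latter the enzyme that removes the N-terminal propeptide, were called lower and ADAMTS3 higher from BF-0d to BF-8d. From IMF-0d to IMF-8d none of the 10 was called in either direction. SPARC, a collagen-binding matrix protein, was at 2774 ± 119 FPKM in BF-0d and 699 ± 181 in BF-4d with IMF means of 2550 ± 173 and 2238 ± 59.2 on those days, 1.71 ± 0.17 higher in IMF on day 4 (adjusted p = 1.17e-07).

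Of the 5 lysyl oxidases, which start the crosslinks between collagen molecules, LOX and LOXL4 were called lower over days 0 to 8 in both depots. LOXL4 fell from 58.0 ± 3.26 FPKM in BF-0d to 0.435 ± 0.230 in BF-4d and from 41.5 ± 6.01 in IMF-0d to 2.08 ± 0.594 in IMF-8d. LOX went from 168 ± 13 to 34.3 ± 5.67 FPKM between BF-0d and BF-8d (-2.27 ± 0.26, adjusted p = 5.61e-07). LOXL2, which also acts on type IV collagen, was at 617 ± 109 FPKM in BF-4d and 299 ± 9.91 in IMF-4d, lower in IMF (-1.03 ± 0.14, adjusted p = 7.42e-06). It was the only lysyl oxidase called lower in IMF on day 4, when LOXL4, LOX and LOXL3 were called higher. Of 8 collagen receptor and uptake genes, DDR1 and ITGA1 were called higher and ITGA11 lower over days 0 to 8 in BF, and ITGA1 and DDR2 higher in IMF. ITGA11, an integrin subunit for fibrillar collagen, fell from 50.3 ± 3.55 to 10.6 ± 1.61 FPKM from BF-0d to BF-8d, with 34.4 ± 1.58 and 30.1 ± 2.34 on those days for IMF cells, a difference of depots of 1.96 ± 0.29 (adjusted p = 1.18e-04).

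The other components of the basement membrane did not rise with type IV collagen as a list. Of 14 tested partners, LAMC3 and AGRN were called higher (background 6.28%) and 5 lower (background 7.39%), led by NID2, from BF-0d to BF-8d. From IMF-0d to IMF-8d LAMC3 was called higher (background 4.56%) and 3 lower (background 4.49%), NID2 among them. LAMC3, a laminin gamma chain, was listed at 0 on day 0 in both depots. Its BF means were 8.97 ± 7.56, 12.9 ± 9.18 and 7.22 ± 1.61 FPKM on days 2, 4 and 8. Its IMF means were 0.148 ± 0.153, 0.140 ± 0.0783 and 19.6 ± 2.58 FPKM. Its change from day 4 to day 8 differed between the depots (4.66 ± 0.90, adjusted p = 0.00121), in the same direction as COL4A1, COL4A2, COL13A1 and COL15A1. NID2, a nidogen that links laminin to type IV collagen, fell from 32.7 ± 2.62 to 8.27 ± 0.606 FPKM from BF-0d to BF-8d (-1.86 ± 0.30), while COL4A1 and COL4A2 rose. HSPG2, the proteoglycan perlecan, was at 121 ± 11.3 FPKM in BF-0d and 41.8 ± 5.08 in BF-8d and was 1.88 ± 0.29 higher in IMF on day 4 (adjusted p = 3.04e-05). These lists were chosen with earlier results of the data known and carry no test of their own.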

How the data were processed

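Polyadenylated RNA of 24 libraries (8 groups of 3) was analysed. The deposited table holds FPKM, which the authors made with HISAT2 and StringTie 1.3.4d on Sscrofa11.1; replicates were not pooled, and the table holds no read counts, so the depth behind each value was not analysed here. Of 1000 low genes 32 shared the commonest ratio between libraries (within 0.01 on the log2 scale), so whole reads could not be recovered, and the number of libraries limits the precision. The authors used DESeq2, which needs counts and was not run here. Instead limma 3.58.1 in R 4.3.3 was fitted to log2(FPKM + 1) with 1 mean per group over all 24 libraries, with trended and robust moderation, for 16135 genes with summed FPKM above 1. A gene was called at an adjusted p under 0.01 (Benjamini-Hochberg) and a log2 difference of at least 1. The added 1 understates changes of low genes. The fit was tested on simulated data before use. Successive days in each depot, depots on each day and differences of depots in the change were compared; contrasts over days 0 to 8 were added after the data were seen.

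Symbols came from a table of pig Ensembl names (14815 IDs matched), and sequences and positions from RefSeq, Sscrofa11.1, in which 38 of the 39 collagen genes were found. Some results of the gene lists are not reported here. The members and gene lists were chosen with earlier results of these data known. Named were collagen genes reaching a mean of 5 FPKM in a group, called or listed at 0 throughout, and up to 3 called genes per other list in each comparison. SOX9, LOXL2 and the marker genes were named after their values were seen. Same-numbered replicates did not deviate together in every comparison, so the numbers were not used as pairs. Alternatives were a pseudocount of 0.1, no filter, a group mean of at least 1 FPKM, quantile normalization, median ratio scaling, only the groups compared, a replicate block, an adjusted p under 0.05 with no fold limit, and leaving out each library.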

Additional observations from a re-analysis of the deposited data

Results flagged for a closer look

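These collagen genes changed differently in the depots, by the limma test of IMF minus BF on the log2(FPKM + 1) scale. From day 0 to day 2 COL11A1 differed by 3.22. From day 2 to day 4 COL1A1 differed by 1.90 and COL8A2 by 1.80. Without BF-2d replicate 3 these 3 values were 3.63, 1.44 and 1.41. From day 4 to day 8 the difference was positive for COL13A1 (2.24), COL4A1 (2.05), COL4A2 (1.92) and COL15A1 (1.47), and negative for COL8A2 (-2.85), COL11A1 (-2.72), COL1A1 (-1.47), COL3A1 (-1.15) and COL5A2 (-1.15). Over days 0 to 8 it was 2.64 for COL14A1, 1.54 for COL11A1 and 1.09 for COL1A2. Without 1 library of the groups, COL1A1 from day 4 to day 8 was lost in 11 of 12 fits, COL5A2 in 10, COL11A1 over days 0 to 8 in 9 and COL1A2 in 12, while COL14A1 was lost in none of the 12.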

How the results depend on the processing

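Of 89 calls of single collagen genes, 53 were kept under every other setting and in every fit without a library of their own groups, and 0 changed direction. The rest lost the call in 1 or more of these fits, 24 of them with only the groups compared, 10 with no filter on low values, 8 under quantile normalization, 7 under the replicate block, 6 with a pseudocount of 0.1 and 4 under median ratio scaling. Leaving out 1 library gave 5 to 12 genes from BF-0d to BF-2d (10 with all), 3 to 7 from BF-2d to BF-4d (6), 0 to 3 from BF-4d to BF-8d (1), 0 to 1 from IMF-0d to IMF-2d (1), 0 to 2 from IMF-2d to IMF-4d (0) and 4 to 10 between depots on day 2 (7). For the difference of depots it gave 1 to 10 from day 0 to day 2 (1), 1 to 7 from day 2 to day 4 (2) and 1 to 5 over days 0 to 8 (3). With only the groups compared, the counts were 2, 0 and 0 for the BF intervals, 1 from IMF-2d to IMF-4d, 1 between depots on day 2, and 2, 0 and 6 for the difference of depots over days 0 to 2, 2 to 4 and 0 to 8. At an adjusted p under 0.05 with no fold limit they were 13 and 5 for the later BF intervals, 2, 2 and 13 for the IMF intervals, 4, 15 and 19 between depots on days 0, 2 and 4, 8, 9 and 6 for the differences of depots over days 0 to 2, 2 to 4 and 0 to 8, and 19 and 17 over days 0 to 8 in BF and IMF. The count from BF-4d to BF-8d was 0 with a pseudocount of 0.1, with no filter, under quantile normalization and under median ratio scaling, and that from IMF-0d to IMF-2d was 0 under the first 3 of these. Between depots on day 0 a pseudocount of 0.1 gave 3. The difference of depots from day 0 to day 2 was 3 with a pseudocount of 0.1 and 2 with a group mean of at least 1 FPKM, quantile normalization or median ratio scaling. From day 2 to day 4 quantile normalization gave 1, and over days 0 to 8 no filter gave 1. The cause of these shifts was not tested.

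Replicate numbers were not used as pairs, since same-numbered libraries correlated between -0.286 and 0.210 over the comparisons. Between depots on day 2 they correlated at 0.086, 0.194 and 0.210, each above the best pairing with another number (0.082, 0.151 and -0.048). Between depots on day 8 they stood at -0.080, -0.024 and -0.073, each below it (0.058, 0.025 and 0.052). Whether the numbers mark piglets is thus not settled. With a replicate block the counts were 0 from IMF-0d to IMF-2d, 1 for the difference of depots over days 0 to 8, and within 1.5 times the count without it elsewhere. The values are FPKM without read counts, so those near 0 carry no counting interval, and 3 libraries per group limit every SD.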
